A study of Mus musculus with 6 samples.

Results

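Foxp3 and 8 further genes of the regulatory T cell (Treg) signature, Lrrc32, Gpr83, Izumo1r, Capg, Plagl1, Swap70, Cd83 and Gpx4, were followed in Treg cells of BAF60b knockout and wild-type mice. The 9 genes were taken by symbol from a count table of 54232 genes, and all 9 passed the filter on low counts that left 13602 genes for testing. The samples were GFP+ Treg cells from mouse spleen, as 3 libraries from BAF60b knockout mice (KO) and 3 from wild-type mice (WT), whose total RNA was sequenced. The knockout was a conventional one, so the gene was not deleted in Treg cells alone, and its allele, the GFP allele, and the strain, age, sex and number of the mice are not given in the labels. The series ties BAF60b, a subunit of the SWI/SNF chromatin remodelling complex encoded by Smarcd2, to the migration of Treg cells. The comparison here, KO against WT, asks whether the genes that mark these cells differed in the knockout.

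Treg cells are CD4 T cells that restrain immune responses, and the forkhead transcription factor Foxp3 is required for their development and function. The signature genes around it are more abundant in Treg cells than in conventional CD4 T cells, and only some of them are bound and driven by Foxp3. They encode surface receptors (Lrrc32, Gpr83, Izumo1r and Cd83), proteins that act on the actin cytoskeleton (Capg and Swap70), a second transcription factor (Plagl1) and an antioxidant enzyme (Gpx4). Other cells of the spleen express several of them as well, Cd83 and Swap70 in B cells and dendritic cells and Capg in macrophages.

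Total counts lay between 19365472 and 22502804 reads in the KO libraries and between 18167053 and 21038091 reads in the WT libraries. Levels are CPM, the raw count relative to the total of its library, as mean ± SD over 3 libraries of each genotype. Fold changes are given on the log2 scale as KO minus WT. The targeted gene Smarcd2 had 57.5, 58.4 and 59.3 CPM in the KO libraries, against 205, 198 and 189 CPM in the WT libraries (log2 fold change -1.77, SE 0.05, adjusted p = 6.77e-08 by edgeR). Smarcd2 reads thus remained in KO, at 0.296 of the WT mean, and whether BAF60b protein was absent was not tested. Markers of the labelled cell type were abundant: Cd4 stood between 775 and 824 CPM in KO libraries and between 789 and 813 CPM in WT libraries, and Il2ra between 1058 and 1062 CPM in KO libraries and between 1065 and 1074 CPM in WT libraries. Of 12 B cell markers, which summed to between 14.4 and 21.3 CPM in KO libraries and between 17.0 and 22.0 CPM in WT libraries, none was at 0 in all libraries. The 12 macrophage and monocyte markers summed to between 45.2 and 302 CPM in KO libraries, highest in KO replicate 2, and to between 83.9 and 107 CPM in WT libraries, again with none at 0 in all libraries. Transcripts of 4 Y-linked genes were at 0 in KO replicate 2 and WT replicate 1, Xist was at 0 in KO replicate 3, and the other 3 libraries held transcripts of both kinds, so the sex of the cells was not matched between libraries.

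Of the 9 genes, 3 rose in KO Treg cells and none fell: Plagl1, Swap70 and Capg passed the test at an adjusted p under 0.05 (quasi-likelihood F test of edgeR, Benjamini-Hochberg adjustment over all tested genes), with increases between 1.22-fold and 1.39-fold. Of all tested genes 6.45% were called, 3.25% as higher and 3.20% as lower in KO. Foxp3 itself did not pass, although its lowest KO library stood above its highest WT library. This absence of overlap held for 4 of the 9 genes (Foxp3, Capg, Plagl1 and Swap70), all with KO above WT, beside 13.6% of all tested genes with KO above WT and 11.8% with KO below WT. The median log2 fold change over the 9 genes was 0.16, and over all tested genes it was 0.00. The number of called genes over the whole table was 877, and it dropped to 344 without WT replicate 1, to 344 without WT replicate 2 and to 556 without WT replicate 3. Whether the libraries of a genotype came from separate mice is not stated in the labels, and each p-value covers the spread between these libraries and no more. In bulk RNA, more of a transcript in every cell and more cells that hold it cannot be told apart.

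**Figure D1:**
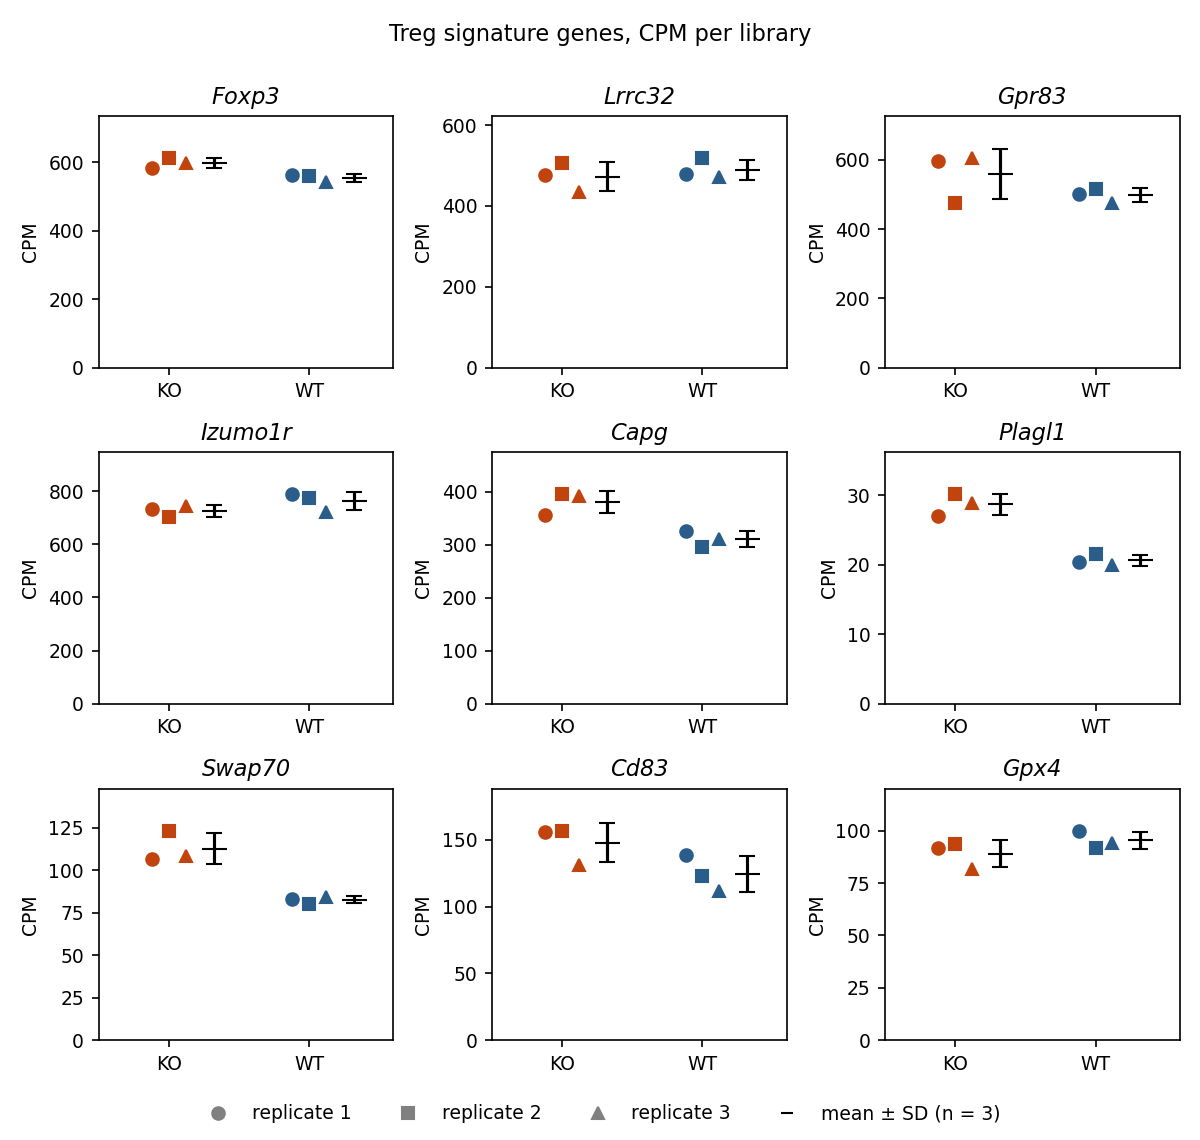
CPM of the 9 signature genes in each library, with KO left of WT, 1 panel per gene and its own axis from 0. Points are libraries and the black bars are mean ± SD (n = 3). The KO points lie above the WT points for Foxp3, Capg, Plagl1 and Swap70, and the groups overlap for the other 5 genes.

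Foxp3 (ENSMUSG00000039521, chromosome X, 7579676 to 7595243, plus strand, mm10) varied the least of the 9 genes between libraries of a genotype. It had 583, 612 and 598 CPM in the KO libraries, against 562, 561 and 542 CPM in the WT libraries, from between 10207 and 13455 reads each. The lowest KO library stood above the highest WT library by a small margin. The means were 598 ± 14.7 CPM in KO and 555 ± 11.5 CPM in WT, a log2 fold change of 0.10 (SE 0.04, 95% interval, unadjusted here and below, -0.0015 to 0.19) with an adjusted p of 0.253 by edgeR. The spread among libraries was 2.46% of the mean in KO and 2.07% in WT, where counting error alone gives 0.901% in KO and 0.956% in WT. With 1 library left out the log2 fold change of Foxp3 stayed between 0.08 and 0.10, and the adjusted p between 0.298 and 0.444. Foxp3 is X-linked and the libraries differed in Xist and Y-linked transcripts: in a fit added after seeing the data, with the Y-linked level as covariate, its log2 fold change was 0.10 (adjusted p = 0.244).

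Flicr, a long noncoding RNA whose annotated exons overlap those of Foxp3 on the same strand and which is known as a negative tuner of Foxp3, was looked at after the values of Foxp3 were seen. It had 11.4, 14.6 and 13.7 CPM in KO libraries, against 14.9, 15.2 and 12.9 CPM in WT libraries (log2 fold change -0.13, SE 0.11, adjusted p = 0.575 by edgeR). The groups overlapped. Genes on the opposite strand whose exons overlap the annotated Foxp3 gene had at most 139 reads (Ppp1r3f) in a library, few beside the reads of Foxp3. The promoter of Foxp3 is shown because it is the gene that defines these cells. It is the RefSeq window (GRCm38.p6, chrX:7579426-7579725, plus strand) of 250 bases before and 50 after the start site at which the gene begins in the count table, with TATAAA, a core TATA box, in capitals.
Foxp3 promoter: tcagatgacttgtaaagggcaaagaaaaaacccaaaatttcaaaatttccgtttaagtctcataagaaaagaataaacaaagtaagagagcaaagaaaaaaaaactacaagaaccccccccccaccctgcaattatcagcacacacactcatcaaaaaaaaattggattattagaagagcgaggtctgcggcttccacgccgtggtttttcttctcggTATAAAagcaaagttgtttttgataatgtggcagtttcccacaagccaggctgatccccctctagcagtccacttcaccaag
This window held 6 CpG dinucleotides and 40.7% G and C, against a median of 7 CpG dinucleotides over 32851 RefSeq promoter windows of the same length. The TATAAA match begins at position -32 from the start site, and 13.6% of all windows hold such a match on either strand.

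The largest increase among the 9 genes was that of Plagl1, a zinc finger transcription factor (also called Zac1) known to restrain cell division and expressed from the paternal allele as an imprinted gene. Plagl1 (ENSMUSG00000019817, chromosome 10, 13060504 to 13131694, plus strand) had 27.0, 30.2 and 28.9 CPM in KO libraries, against 20.5, 21.6 and 19.97 CPM in WT libraries. Every KO library was higher than every WT library, with a gap wider than the range of either genotype. The means were 28.7 ± 1.58 CPM in KO and 20.7 ± 0.821 CPM in WT, a ratio of 1.39 (log2 fold change 0.46, SE 0.07, 95% interval 0.30 to 0.62, adjusted p = 0.00559 by edgeR). It was the least abundant of the 9 genes, with between 372 and 651 reads in a library, and its spread of 5.49% in KO and 3.97% in WT was about that of counting error (4.11% in KO and 4.96% in WT). The call held in each fit with 1 library left out, at an adjusted p of at most 0.0361. The Plagl1 promoter is shown for its base composition, as the window chr10:13090582-13090881 (GRCm38.p6, plus strand) with CpG dinucleotides in capitals. The start site of this window, 13090832, lies inside the gene and not where its span in the count table begins.
Plagl1 promoter: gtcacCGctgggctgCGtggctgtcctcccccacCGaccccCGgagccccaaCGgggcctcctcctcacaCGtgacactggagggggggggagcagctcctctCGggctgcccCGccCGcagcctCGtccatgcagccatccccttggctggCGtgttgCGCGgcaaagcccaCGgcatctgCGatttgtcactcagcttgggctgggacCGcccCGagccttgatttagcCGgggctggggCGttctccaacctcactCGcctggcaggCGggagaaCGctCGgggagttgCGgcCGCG
It held 26 CpG dinucleotides and 70.7% G and C, and 84.5% of all RefSeq windows had as many CpG dinucleotides or fewer. Of 17 further genes of the imprinted network, 8 were tested and 1 was called as higher in KO, beside 3.25% of all tested genes. That gene, Dlk1, encodes a membrane protein related to Notch ligands and had 16, 13 and 25 reads in KO libraries, against 1, 4 and 4 reads in WT libraries (adjusted p = 0.0151 by edgeR), so it was near the detection floor of 3 reads in WT. Leaving out WT replicate 1 or 2 ended the call of Dlk1 (highest adjusted p = 0.0726).

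Capg and Swap70 both act on actin, and both rose. Swap70 (ENSMUSG00000031015, chromosome 7, 110221711 to 110283506, plus strand) encodes a protein that binds membrane phosphoinositides and filamentous actin and signals through Rac. It had 106, 123 and 108 CPM in KO libraries, against 83.2, 80.3 and 84.3 CPM in WT libraries. All KO libraries stood above all WT libraries, and KO replicate 2 was the highest. The means were 113 ± 9.26 CPM in KO and 82.6 ± 2.03 CPM in WT, a ratio of 1.36 (log2 fold change 0.44, SE 0.06, 95% interval 0.31 to 0.56, adjusted p = 0.00266 by edgeR). Without KO replicate 2, the library with the most macrophage marker reads, the log2 fold change was 0.37 (adjusted p = 0.00466), and no single library left out ended the call (highest adjusted p = 0.0257). An antisense transcript across 395 bases of its exons, Gm45515, had between 26 and 35 reads in KO libraries and between 18 and 27 reads in WT libraries, few beside at least 1511 reads of Swap70.

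The Swap70 promoter is shown because, among the promoters of the 9 genes that could be read, only it held TGTTTAC, a forkhead core. Other forms of the forkhead core were not searched for. The RefSeq table matched 7 of the 9 genes, with 11 windows in all, and not Lrrc32 or Cd83. Each was searched on both strands for a forkhead core (TGTTTAC), a RUNX core (TGTGGT), an AP-1 core (TGANTCA) and TATAAA, and no matches overlapped each other. The window is chr7:110221453-110221752 (GRCm38.p6, plus strand), with the RUNX core (read on the reverse strand) and the forkhead core in capitals.
Swap70 promoter: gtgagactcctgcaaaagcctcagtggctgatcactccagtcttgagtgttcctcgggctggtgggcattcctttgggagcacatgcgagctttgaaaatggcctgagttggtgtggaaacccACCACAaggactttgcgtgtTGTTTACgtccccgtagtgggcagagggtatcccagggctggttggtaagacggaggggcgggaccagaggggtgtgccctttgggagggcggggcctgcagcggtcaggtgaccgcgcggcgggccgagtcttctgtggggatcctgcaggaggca
The forkhead match begins at position -107 and the RUNX match at position -127 from the start site. The forkhead core TGTTTAC occurred in 3.65% of all 32851 windows, the RUNX core in 16.8% and the AP-1 core in 7.81%. Izumo1r also held a RUNX core and Gpr83 a TATAAA, and the windows of Capg, Plagl1 and Gpx4 held none of the 4 sequences.

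Capg (ENSMUSG00000056737, chromosome 6, 72544391 to 72562983, plus strand) encodes a gelsolin-family protein that caps the growing ends of actin filaments without cutting them. It had 356, 395 and 391 CPM in KO libraries, against 326, 296 and 312 CPM in WT libraries. The groups did not overlap, and KO replicate 1 came nearest to WT. The means were 381 ± 21.6 CPM in KO and 311 ± 15.4 CPM in WT, a ratio of 1.22 (log2 fold change 0.28, SE 0.05, 95% interval 0.16 to 0.40, adjusted p = 0.0139 by edgeR). Leaving out WT replicate 2 ended the call (log2 fold change 0.24, adjusted p = 0.0865), the only one of 15 alternatives to do so, where the adjusted p of the others lay between 0.000114 and 0.0473. Capg is abundant in macrophages, and it was highest in KO replicate 2, which had the most macrophage marker reads (302 CPM). KO replicate 3, with the fewest macrophage marker reads of all libraries (45.2 CPM), had nearly as much Capg, at 391 CPM. Without KO replicate 2 the log2 fold change of Capg was 0.26 (adjusted p = 0.0354), and the part of the macrophage markers in its level was not tested.

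Calls among the partners of both proteins stand beside the 6.45% of all tested genes that were called. Of 10 tested members of the gelsolin family and other capping or severing proteins, 0 were called by edgeR or limma-voom and 1 by DESeq2, and 1 had an unadjusted p under 0.05. That gene, Gsn, the actin-severing protein gelsolin, had 38.9 ± 3.52 CPM in KO and 31.7 ± 0.297 CPM in WT (log2 fold change 0.28, adjusted p = 0.0554 by edgeR). Of 11 tested genes linked to Swap70, 1 was called. It was Irf4, a transcription factor that Swap70 and its homolog Def6 are known to bind, at 195 ± 3.68 CPM in KO and 159 ± 3.86 CPM in WT (log2 fold change 0.28, SE 0.05, adjusted p = 0.00742 by edgeR). Def6 itself had 157 ± 2.36 CPM in KO and 159 ± 1.14 CPM in WT (adjusted p = 0.738 by edgeR).

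**Figure D2:**
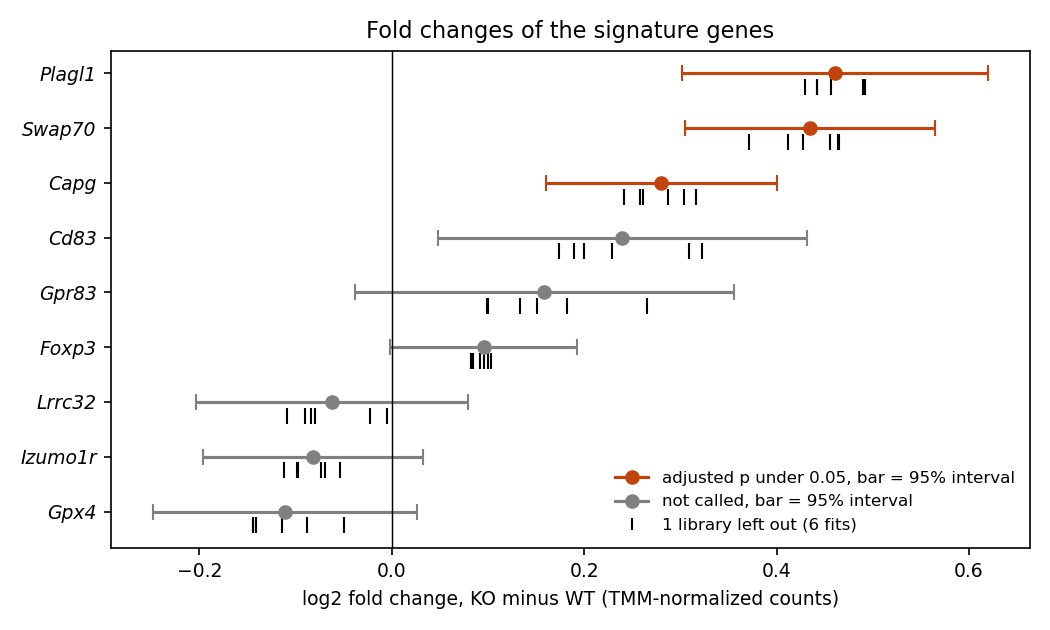
Log2 fold change (KO minus WT) of the 9 signature genes on the x axis, with the unadjusted 95% interval of the fit as a bar and the values with 1 library left out as ticks below. Plagl1, Swap70 and Capg, in orange, passed the adjusted threshold, and the ticks of every gene stay on the side of 0 of its point.

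Among the surface receptors, none of Cd83, Lrrc32, Gpr83 and Izumo1r passed the test. Cd83 (ENSMUSG00000015396, chromosome 13, 43784775 to 43803132, plus strand), a protein of the immunoglobulin superfamily that marks mature dendritic cells and appears on activated T cells, had 156, 157 and 131 CPM in KO libraries, against 138, 123 and 112 CPM in WT libraries. KO replicate 3 fell inside the WT range. The log2 fold change was 0.24 (SE 0.09, unadjusted 95% interval 0.05 to 0.43, adjusted p = 0.149 by edgeR), and it passed without KO replicate 3 (log2 fold change 0.32, adjusted p = 0.0252). It also passed with the Y-linked covariate (adjusted p = 0.0219), and over all 15 alternatives the adjusted p ran from 0.00740 to 0.379. B cells and dendritic cells carry Cd83 as well. The B cell markers overlapped between genotypes, and Cd79a, which encodes part of the B cell receptor, had between 36 and 49 reads in KO libraries and between 45 and 56 reads in WT libraries. Dendritic cell markers, 10 in number with none at 0 in all libraries, summed to between 95.5 and 128 CPM in KO libraries and between 129 and 199 CPM in WT libraries. Only 3 of the 10 passed the filter on low counts. Of these 1 was called, as lower in KO: Ccr9, named after its values were seen, whose call ended without WT replicate 1 or 2. The sum is thus not a count of dendritic cells. The part of either cell type in the level of Cd83 was not tested.

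Cd83 is known to keep MHC class II and Cd86 on the cell surface by opposing the ubiquitin ligase encoded by March1. Of 9 tested genes of this axis 0 were called by edgeR or limma-voom. DESeq2 called 2, 1 higher and 1 lower in KO, and 3 had an unadjusted p under 0.05 by edgeR. Over all 13602 tested genes, edgeR called 877, DESeq2 1010 and limma-voom 870, and 2780 had an unadjusted p under 0.05 by edgeR. The median log2 fold change of the genes of this axis was 0.42, and the part of other cell types in their levels was not tested. The smallest p was that of Cd74, the invariant chain, at 50.2 ± 9.80 CPM in KO and 37.1 ± 2.78 CPM in WT (log2 fold change 0.42, adjusted p = 0.0669 by edgeR). KO replicate 2, high in macrophage markers, had 61.6 CPM of Cd74, against 44.8 and 44.4 CPM in the other KO libraries.

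Lrrc32 encodes GARP, which holds latent TGF-beta on the Treg cell surface until integrins release it. Lrrc32 (ENSMUSG00000090958, chromosome 7, 98489283 to 98502181, plus strand) had 476, 506 and 435 CPM in KO libraries, against 478, 518 and 471 CPM in WT libraries. The groups overlapped almost wholly. Its log2 fold change was -0.06 (SE 0.06, adjusted p = 0.649 by edgeR), and the 95% interval ran from -0.20 to 0.08. Platelets carry GARP too, and their 8 markers, with Gp1bb at 0 in all libraries, summed to between 49.7 and 65.9 CPM in KO libraries and between 67.2 and 69.2 CPM in WT libraries; Pf4, which defines them, was at or under 0.33 CPM in every library.

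Around GARP, 14 genes of TGF-beta storage, release and reception were tested, and 2 rose and 2 fell, beside 6.45% of all tested genes called. Tgfb1, the cytokine itself, had 212 ± 1.89 CPM in KO and 218 ± 8.06 CPM in WT (adjusted p = 0.590 by edgeR). Itgb8, the integrin chain that frees TGF-beta from GARP, was higher at 96.1 ± 4.58 CPM in KO and 78.0 ± 4.86 CPM in WT (log2 fold change 0.29, adjusted p = 0.0189 by edgeR). Furin, the protease that cleaves the TGF-beta precursor, was lower at 93.4 ± 4.29 CPM in KO and 114 ± 8.98 CPM in WT (log2 fold change -0.30, adjusted p = 0.0224 by edgeR). Of the receptors, Tgfbr1 had a log2 fold change of 0.25 and the co-receptor Tgfbr3 one of -0.55. The call of Tgfbr3 held with any library left out. Leaving out WT replicate 1 or 2 ended the calls of Itgb8, Furin and Tgfbr1, leaving out WT replicate 3 those of Itgb8 and Tgfbr1, and leaving out KO replicate 1 or 2 that of Tgfbr1 (highest adjusted p of 0.0963, 0.0907 and 0.139 for Itgb8, Furin and Tgfbr1).

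Gpr83 and Izumo1r are neighbours on chromosome 9 with 15024 bases and no other gene of the table between them. Gpr83 (ENSMUSG00000031932, 14860210 to 14870789, plus strand) encodes a G protein-coupled receptor that is enriched in Treg cells, and Izumo1r (ENSMUSG00000031933, 14885814 to 14903949, minus strand) a glycolipid-anchored surface protein, known on Treg cells as folate receptor FR4 and on eggs as Juno, the receptor for sperm. Gpr83 had 596, 476 and 604 CPM in KO libraries, against 500.1, 516 and 476 CPM in WT libraries. KO replicates 1 and 3 stood above all WT libraries and KO replicate 2 level with the lowest of them. Its log2 fold change was 0.16 (SE 0.09, 95% interval -0.04 to 0.36, adjusted p = 0.361 by edgeR), and 0.27 without KO replicate 2 (adjusted p = 0.0189). In the other 14 alternatives the adjusted p of Gpr83 lay between 0.125 and 0.649. KO replicate 2 was also the KO library without Y-linked reads and the one with the most macrophage marker reads. Among WT libraries, the one without Y-linked reads, WT replicate 1, lay between the others in Gpr83, at 500.1 CPM. With the Y-linked covariate the log2 fold change of Gpr83 was 0.07, and the part of the macrophage markers in its level was not tested.

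Izumo1r had 731, 701 and 743 CPM in KO libraries, against 788, 775 and 723 CPM in WT libraries. The groups overlapped, with WT replicate 3 among the KO libraries. The log2 fold change was -0.08 (SE 0.05, 95% interval -0.20 to 0.03, adjusted p = 0.422 by edgeR), opposite in sign to that of its neighbour. Over all 13602 tested genes, edgeR called 877, DESeq2 1010 and limma-voom 870, and 2780 had an unadjusted p under 0.05 by edgeR. Of 3 tested genes of the folate receptor and transporter list, 0 were called by edgeR and 1 each by DESeq2 and limma-voom. Among these 3 genes, 1 had an unadjusted p under 0.05 by edgeR. That gene was Slc19a1, the reduced folate carrier, at 30.6 ± 2.42 CPM in KO and 37.3 ± 1.61 CPM in WT (log2 fold change -0.29, adjusted p = 0.0537 by edgeR).

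Gpx4, the selenoprotein that reduces lipid hydroperoxides and so protects cells from ferroptosis, did not pass the test. Gpx4 (ENSMUSG00000075706, chromosome 10, 80047166 to 80056439, plus strand) had 91.8, 93.7 and 81.6 CPM in KO libraries, against 100.1, 91.9 and 94.2 CPM in WT libraries. KO replicate 2 lay within the WT range. The log2 fold change was -0.11 (SE 0.06, 95% interval -0.25 to 0.03, adjusted p = 0.358 by edgeR). The count is uncertain, because the processed copy Gpx4-ps2, looked at after the values were seen, took between 433 and 454 reads in KO libraries and between 470 and 514 reads in WT libraries. Gpx4 and this copy together had 111 ± 8.62 CPM in KO and 120.3 ± 5.85 CPM in WT. Of 24 tested genes of lipid peroxidation, selenoprotein synthesis, glutathione and iron handling, 1 (4.17%) was called, beside 6.45% of all tested genes. It was Aifm2, which encodes a second suppressor of ferroptosis (FSP1), at 4.76 ± 0.816 CPM in KO and 2.89 ± 0.0943 CPM in WT (log2 fold change 0.71, adjusted p = 0.0451 by edgeR). The call of Aifm2 was not made by DESeq2 or limma-voom, nor after leaving out KO replicate 2 or 3 or any WT replicate (highest adjusted p = 0.162).

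The ratio of each gene to Foxp3 in the same library removes the effect of library size, but carries the higher level of Foxp3 in the KO libraries into every ratio. For 6 of the 8 genes the KO and WT ratios did not overlap, which gives p = 0.1 in a two-sided exact permutation test of 3 libraries against 3, the smallest p that this design allows. Over the other 13601 tested genes the ratio to Foxp3 did not overlap for 35.5%, with all KO libraries above WT for 6.36% and below WT for 29.2%. Plagl1, Swap70 and Capg were higher per Foxp3 read in KO, by 0.37, 0.34 and 0.18 on the log2 scale. Lrrc32, Izumo1r and Gpx4 were lower per Foxp3 read in every KO library, with differences of -0.16, -0.18 and -0.21. Izumo1r had 1.254, 1.15 and 1.24 reads per Foxp3 read in KO libraries, against 1.40, 1.38 and 1.33 in WT libraries. Gpr83 (p = 0.8) and Cd83 (p = 0.3, both exact permutation tests) overlapped between genotypes. The ratio of Gpr83 changed sign without KO replicate 1 or KO replicate 3, with differences between -0.01 and 0.18 over the 6 libraries left out.

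**Figure D3:**
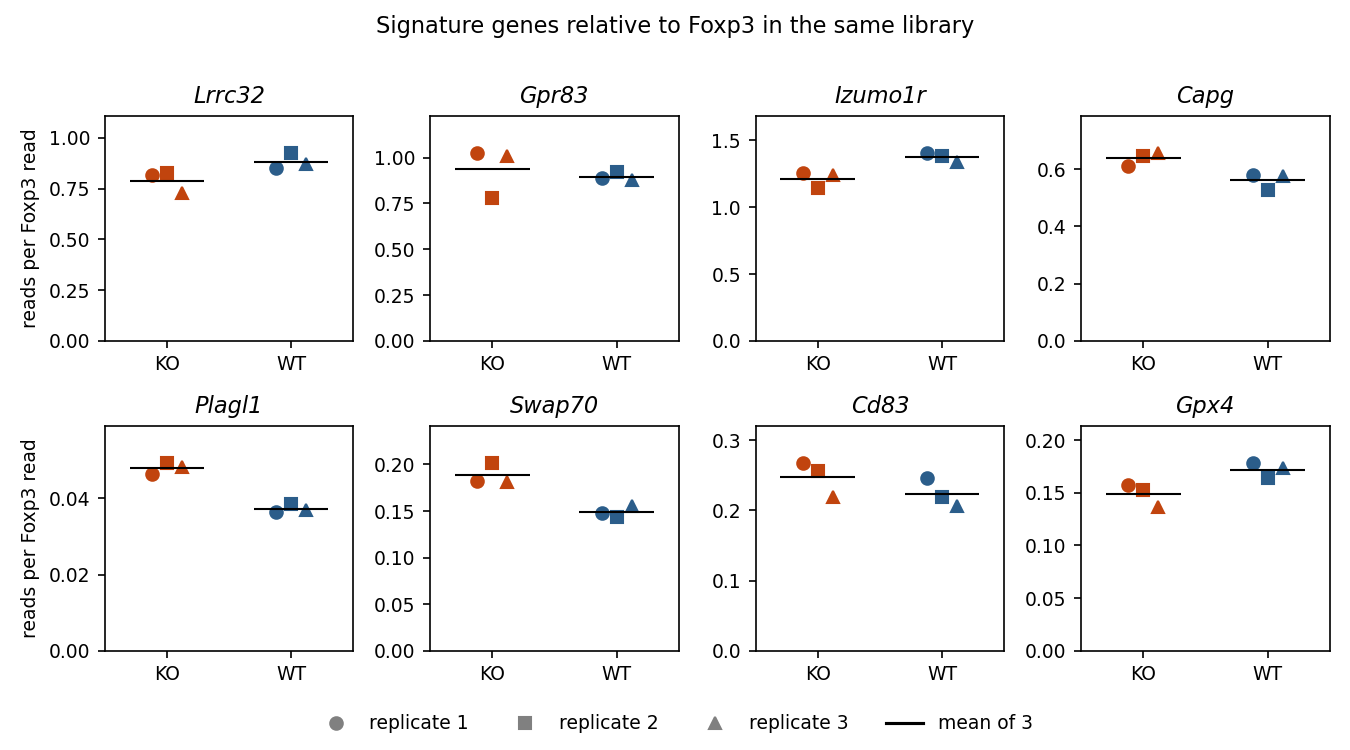
Reads of each of 8 signature genes per read of Foxp3 in the same library, with KO left of WT, axes from 0, points for libraries and lines for the mean of 3. KO ratios lie above WT for Capg, Plagl1 and Swap70, below WT for Lrrc32, Izumo1r and Gpx4, and overlap for Gpr83 and Cd83.

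Between genes, levels were compared as CPM per kilobase of annotated exon. Izumo1r was the most abundant at 313 ± 9.18 CPM per kb in KO and 328 ± 14.7 CPM per kb in WT. Capg (151 ± 8.54 CPM per kb) and Foxp3 (149.8 ± 3.69 CPM per kb) followed in KO, with overlapping libraries, while in WT Foxp3 (139 ± 2.89 CPM per kb) stood above Capg (123 ± 6.07 CPM per kb) in every library. These Foxp3 values use 3989 bases of exon, those within its span in the count table, where the full annotation has 4577. The longer length would lower every Foxp3 value, so the order of Foxp3 and Capg depends on this choice. Gpr83 and Lrrc32 came next and overlapped in both genotypes, at 109.6 ± 14.1 and 101 ± 7.62 CPM per kb in KO, and at 97.6 ± 3.94 and 104 ± 5.44 CPM per kb in WT. Cd83 and Gpx4 also overlapped in both, with means between 48.4 and 57.5 CPM per kb. Swap70, at 13.9 ± 1.14 CPM per kb in KO and 10.2 ± 0.251 CPM per kb in WT, and Plagl1, at 3.67 ± 0.202 CPM per kb in KO and 2.64 ± 0.105 CPM per kb in WT, were apart from all others. The 3 genes that rose thus included the least abundant and one of the most abundant of the 9.

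**Figure D4:**
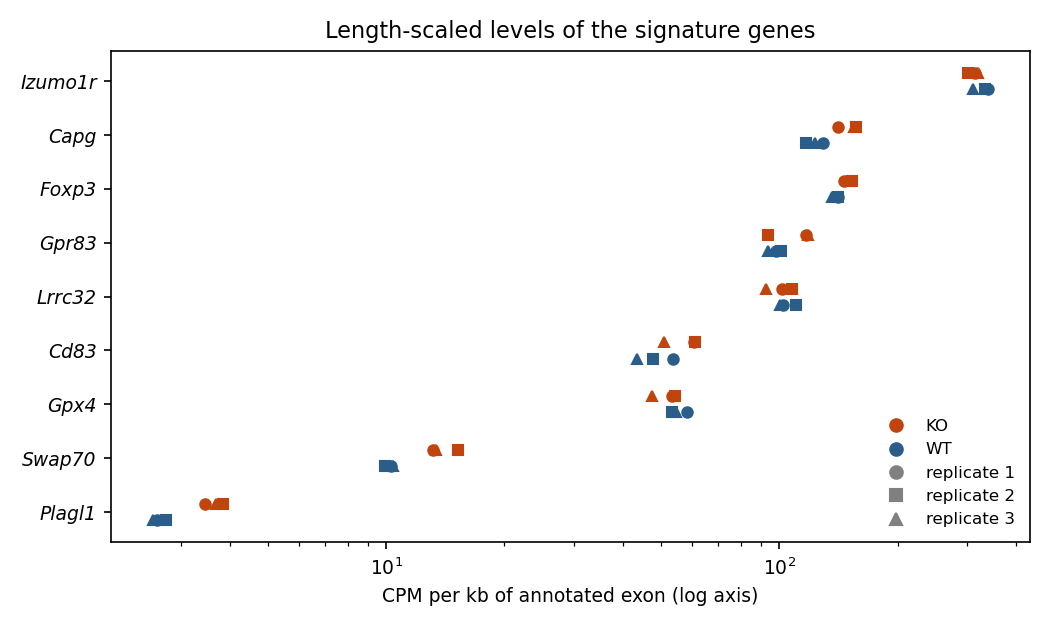
Level of each signature gene in CPM per kb of annotated exon on a log axis, with KO above WT in each row and genes ordered by their KO mean. With Foxp3 scaled by the exons within its span in the count table, Capg and Foxp3 coincide in KO and separate in WT. Swap70 and Plagl1 lie below all other genes.

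Profiles over the 6 libraries were set against those of the 7168 genes that averaged 20 CPM or more, by the mean absolute difference of log2 levels centred on each gene's mean. Among the nearest to Foxp3 were Qrich1 (0.0105) and Rab21 (0.0129), neither of them called. Swap70 lay nearest to Cd1d1, Eno3 and Abcb1a (0.0304 to 0.0329), and Plagl1 to Dnah8, Cd1d1 and Zmat3 (0.0394 to 0.0472), and all of these were called as higher in KO. Cd1d1, which presents lipids to T cells, was thus near to both. Capg lay nearest to Xlr4a, Arntl and Rilpl2 (0.0235 to 0.0264). All profiles come from the same 6 libraries and share their depth and genotype. Genes near a called gene were picked for sharing its difference between genotypes, so their own calls add no support.

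Other Treg genes moved in both directions. Of 32 tested further Treg genes, 9 rose and 3 fell, with a median log2 fold change of 0.12. Of all tested genes 3.25% were called as higher and 3.20% as lower in KO. Like the others, this list was chosen with earlier results of these data known. Gzmb, the cytotoxic protease granzyme B, had 92.5 ± 14.2 CPM in KO and 23.7 ± 1.64 CPM in WT (log2 fold change 1.95, adjusted p = 3.24e-05 by edgeR), Ndrg1 31.8 ± 3.14 CPM in KO and 20.6 ± 0.981 CPM in WT (0.61, adjusted p = 0.00341) and the chemokine receptor Ccr8 70.1 ± 8.39 CPM in KO and 47.3 ± 3.17 CPM in WT (0.56, adjusted p = 0.00475). Nrp1, a semaphorin co-receptor, was lower at 228 ± 12.1 CPM in KO and 328 ± 13.7 CPM in WT (log2 fold change -0.54, adjusted p = 0.000613 by edgeR). These 4 calls held with any library left out. The fall farthest from 0 was that of Il10, an inhibitory cytokine, at 16.6 ± 6.35 CPM in KO and 39.7 ± 6.43 CPM in WT (log2 fold change -1.26, adjusted p = 0.0101 by edgeR), a gene named after its values were seen. The list gave 6 rises and 3 falls without KO replicate 2, 7 and 2 without WT replicate 1, and 6 and 2 without WT replicate 2. The call of Il10 ended without WT replicate 1 or 2 (highest adjusted p = 0.0590).

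Of 20 tested genes of effector Treg cells, 11 rose and 4 fell (median log2 fold change 0.26). Over all tested genes the shares were 3.25% higher and 3.20% lower, and the list was chosen with earlier results known. The effector genes with the smallest p, Gzmb, S100a6, Ccr6 and Cd44, were all higher in KO. The falls, named after their values were seen, were Lag3 (log2 fold change -1.10), Il1rl1 (-0.92), Klrg1 (-0.74) and Id2 (-0.35), the first 3 of them surface receptors. None of the 4 falls was called without WT replicate 1 and 1 (Id2) without WT replicate 2, while 10 genes rose in each of these fits. Among 14 genes that mark the resting state the calls were 2 in each direction (median log2 fold change -0.10): Id3 (log2 fold change 0.75) and Dapl1 (0.79) rose, and Satb1 (-0.47) and Ly6c1 (-0.54), whose reads may be shared with its paralog Ly6c2, fell. Leaving out KO replicate 1 or 2 or WT replicate 1 or 2 ended the call of Dapl1 (highest adjusted p = 0.179), and without KO replicate 3 the list gave 4 falls.

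Of 44 tested genes known to regulate Foxp3 or to bind its protein, 3 rose and 2 fell (median log2 fold change -0.00). The called share was 11.4%, beside 6.45% of all tested genes. Hdac9, a histone deacetylase that binds Foxp3 and limits Treg function in mice, had 24.4, 32.7 and 25.6 CPM in KO libraries, against 10.8, 11.9 and 10.7 CPM in WT libraries. This was the largest change of the list, with all KO libraries well above WT (log2 fold change 1.29, SE 0.11, adjusted p = 0.000324 by edgeR). Satb1, a chromatin organiser that acts before Foxp3 in Treg development and is held down by it later, had 282 ± 2.41 CPM in KO and 387 ± 7.12 CPM in WT (log2 fold change -0.47, SE 0.04, adjusted p = 0.000391 by edgeR). Irf4, given above, and the nuclear receptor Nr4a2 (13.4 ± 1.36 CPM in KO and 8.32 ± 0.973 CPM in WT, adjusted p = 0.0107 by edgeR) rose. Leaving out WT replicate 1 or 2 ended the call of Nr4a2 (highest adjusted p = 0.0609). The second fall was Nfatc1, of the NFAT family of transcription factors, which cooperate with Foxp3, at 288 ± 7.78 CPM in KO and 332 ± 21.4 CPM in WT (log2 fold change -0.21, adjusted p = 0.0460 by edgeR). Its call ended in 8 of 15 alternatives (highest adjusted p = 0.168), among them scaling by library size alone and leaving out KO replicate 2 or 3 or any WT replicate.

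Genes that Foxp3 is known to repress, or that are low in Treg cells, gave 2 rises and 3 falls among 15 tested (median log2 fold change -0.14). Of all tested genes 6.45% were called. The falls included Satb1, counted here as well as among the regulators and the resting genes, and Zap70, a kinase of T cell receptor signalling (237 ± 2.12 CPM in KO and 277 ± 15.9 CPM in WT). The rises were Tnf (20.3 ± 2.16 CPM in KO and 14.9 ± 1.08 CPM in WT) and Dapl1. Leaving out WT replicate 1 or 2 ended the calls of Zap70 and Tnf, and leaving out WT replicate 3 or KO replicate 1 or 2 that of Tnf (highest adjusted p of 0.104 and 0.137 for Zap70 and Tnf). Of 11 tested genes of the stress response to tissue dissociation 2 were called, Egr1 (log2 fold change -0.38) and Ier2 (-0.31), both lower in KO and both also targets of T cell receptor signalling.

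**Figure D5:**
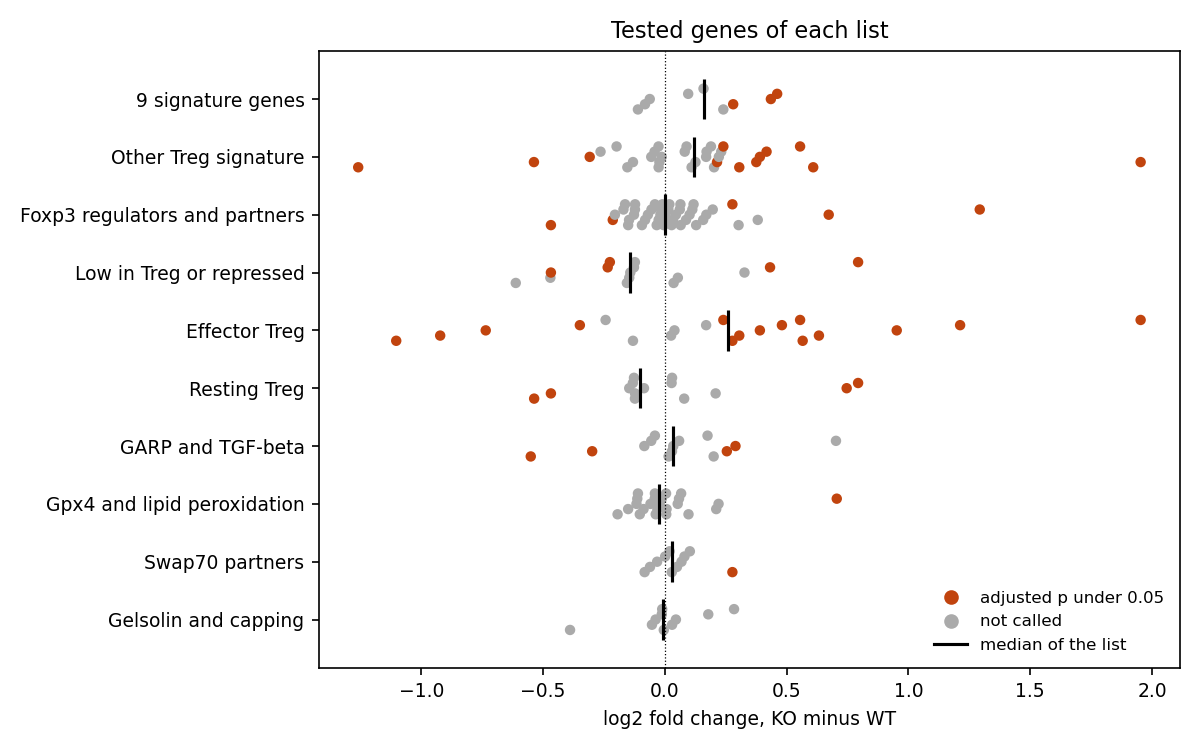
Log2 fold change (KO minus WT) of each tested gene in 10 lists, 1 row per list, with the list median as a vertical line and called genes in orange. The 9 signature genes span -0.11 to 0.46, and the rows of other Treg signature and effector Treg genes extend to Gzmb at 1.95.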

How the data were processed

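RNA of GFP+ Treg cells was sequenced in 3 KO and 3 WT libraries. The authors deposited raw read counts per Ensembl gene, as whole numbers without normalization. Per the submitters' processing notes, the tools were HISAT2 2.1.0, fastp 0.23.2, DESeq2 1.34.0 and Picard, and the build was mm10. Not given in the sources used here are the read counter, its strand setting and its annotation, so reads of overlapping genes may be shared. Spreadsheet software had turned 27 symbols into dates, which were restored from the Ensembl identifier. CPM is the count divided by the library total, and exon lengths and overlaps are from GENCODE M21, with Foxp3 exons limited to the span in the table.

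Genes were kept by filterByExpr (minimum count 10, minimum total 15), normalized by TMM and tested with edgeR 4.0.16 (R 4.3.3, quasi-likelihood F test, no block, all 6 libraries), with a call at an adjusted p (Benjamini-Hochberg) under 0.05. Each SE was obtained from the fold change and the square root of F. The alternatives were limma-voom 3.58.1, DESeq2 1.42.0, RLE factors, library sizes alone, testing without a filter or with one at a mean of 2 CPM, the replicate number as a block, removal of other cell types' markers, each library left out and, chosen after seeing the data, a Y-linked covariate. Steps were tested on simulated data. No replicate pair agreed within sampling noise (chi-square per degree of freedom at least 5.03).

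The members and lists were chosen with earlier results of these data known. All 9 genes are named, with Smarcd2, up to 4 called genes of each list by adjusted p or the one with the smallest p, and the 3 nearest profiles of a member. Genes that this rule takes in are not all reported here. Other genes are said to have been chosen after their values were seen. A floor of 3 counts, between 0.133 and 0.165 CPM, covers counting error only.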

Additional observations from a re-analysis of the deposited data

How the results depend on the processing

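The number of called genes was 1624 with no filter, where 24676 genes were tested, and between 344 and 848 with 1 library left out, beside 877 in the fit with all libraries. Of the 9 genes 3 were called with all libraries, and between 2 and 4 in the alternatives. Plagl1 and Swap70 were called in all 15 alternatives run and Capg in all but the one without WT replicate 2. Cd83 was called with no filter (adjusted p = 0.00740), with the replicate block (adjusted p = 0.0371), with the Y-linked covariate and without KO replicate 3, and Gpr83 without KO replicate 2. No log2 fold change of the 9 genes changed sign in any of these alternatives.

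The labels do not say whether the replicate numbers pair the libraries. Deviations from the genotype means correlated at -0.145, -0.0450 and 0.155 between same-numbered KO and WT libraries, and between -0.206 and 0.231 for different numbers. Not every library correlated best with its own number. With 3 libraries of each genotype, whose deviations sum to 0, this check cannot decide whether the numbers mark pairs. With the replicate block 738 genes were called, and 4 of the 9. With the mean of 5 Treg genes (Foxp3, Il2ra, Ctla4, Ikzf2 and Tnfrsf18) in place of Foxp3 as denominator, the difference of the log2 ratio was -0.25 for Izumo1r, 0.11 for Capg and 0.30 for Plagl1, beyond 1 SD between libraries from the values per Foxp3 read, and that of Gpr83 was -0.02, beside 0.05 per Foxp3 read. The 5 genes include Ikzf2, which rose in KO. Depth limits genes with few reads, such as Dlk1 with between 1 and 4 reads in WT libraries.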
